A study of Mus musculus and Sus scrofa with 12 samples.

Results

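In the pig embryonic forelimb at day 23 of gestation, the H3K27ac regions were set against the H3K4me1 regions, and each protein-coding gene was described by how many of the H3K4me1 regions around it also carried H3K27ac. The 2 deposited pig lists hold 27566 H3K27ac and 103373 H3K4me1 peaks. Of these, 27565 and 103372 lay on sequences matched to the Sscrofa11.1 assembly and were used, or 130937 of the 258803 regions in the series. Each H3K4me1 peak was given to the gene with the nearest coding transcription start site (TSS) within 500 kb, in the RefSeq annotation of Sscrofa11.1. This placed 100314 peaks at 16072 of 20674 coding genes and left 3058 peaks farther away. A gene's share is the percentage of its H3K4me1 peaks that overlap an H3K27ac peak by 1 bp or more, and it was read for the 5783 genes with 5 or more H3K4me1 peaks.

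The pig samples were wild-type forelimbs at day 23, with littermates pooled into biological replicates, and the labels give 2 samples of H3K27ac and 2 of H3K4me1. For H3K4me1 the series' design text gives 1 biological replicate instead, so the sources differ. Pig H3K27ac was sequenced at 50 bp and pig H3K4me1 at 100 bp before trimming to 50 bp. The mouse forelimbs used for comparison were also wild type, at E11.5. All samples were whole limbs, so a peak in few cells and a weak peak in many cannot be told apart. Each modification comes as 1 consensus list with no score and no value per sample. No spread between animals could be computed and no test was made. The intervals given are 95% Wilson intervals, which cover counting error only and take neighbouring peaks as independent.

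Monomethylation of lysine 4 on histone H3 (H3K4me1) is laid down broadly at enhancers, often before they act, and on the flanks of promoters. Acetylation of lysine 27 (H3K27ac) is added by p300 and CBP at enhancers and promoters in use. An H3K4me1 region without H3K27ac is commonly called a primed or poised enhancer, and one with it an active enhancer. In limb buds such enhancers often lie far from the patterning genes they control, and acetylation follows where and when those genes are on. "Activated" and "primed" below name these states of the chromatin around a gene, not its expression, which was not measured here.

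The following 200 bp stretches show what the regions at activated and at primed genes look like, printed 5′ to 3′ on the plus strand of Sscrofa11.1 from the RefSeq genome, with CG dinucleotides in capitals. The first 3 are the centres of the widest distal H3K27ac peak that lies wholly inside an H3K4me1 peak of its gene. They lie in an intron of ROR2 at chr14:3015823-3016022, 19.5 kb from its TSS. The BAMBI region is outside coding genes at chr10:40264831-40265030, 212 kb away, and the CDON region is in an intron at chr9:53152264-53152463, 22.7 kb away. The other 3 are the centres of the widest distal H3K4me1 peak without H3K27ac, all outside coding genes. They belong to SEMA3A at chr9:95855406-95855605 (79.4 kb), SPRY2 at chr11:51853694-51853893 (305 kb) and TBX18 at chr1:54004089-54004288 (137 kb).
ROR2, with H3K27ac: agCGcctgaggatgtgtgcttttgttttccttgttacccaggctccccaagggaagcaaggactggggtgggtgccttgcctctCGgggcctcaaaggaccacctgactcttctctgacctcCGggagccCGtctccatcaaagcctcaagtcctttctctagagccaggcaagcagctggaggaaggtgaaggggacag
BAMBI, with H3K27ac: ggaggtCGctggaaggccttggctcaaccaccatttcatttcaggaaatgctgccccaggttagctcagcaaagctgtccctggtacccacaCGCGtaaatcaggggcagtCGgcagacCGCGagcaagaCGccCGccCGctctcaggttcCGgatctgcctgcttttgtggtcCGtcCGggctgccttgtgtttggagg
CDON, with H3K27ac: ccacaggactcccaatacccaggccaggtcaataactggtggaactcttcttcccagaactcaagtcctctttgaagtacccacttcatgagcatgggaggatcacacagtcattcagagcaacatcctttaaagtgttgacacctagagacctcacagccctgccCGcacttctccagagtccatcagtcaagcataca
SEMA3A, without H3K27ac: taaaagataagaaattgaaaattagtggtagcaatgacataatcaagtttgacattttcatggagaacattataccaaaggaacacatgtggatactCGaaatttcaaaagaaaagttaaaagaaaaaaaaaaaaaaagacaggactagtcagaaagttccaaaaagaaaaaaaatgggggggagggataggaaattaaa
SPRY2, without H3K27ac: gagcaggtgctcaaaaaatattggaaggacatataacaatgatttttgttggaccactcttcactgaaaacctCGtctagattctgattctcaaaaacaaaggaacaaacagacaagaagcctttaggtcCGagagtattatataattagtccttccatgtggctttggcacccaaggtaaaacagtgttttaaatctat
TBX18, without H3K27ac: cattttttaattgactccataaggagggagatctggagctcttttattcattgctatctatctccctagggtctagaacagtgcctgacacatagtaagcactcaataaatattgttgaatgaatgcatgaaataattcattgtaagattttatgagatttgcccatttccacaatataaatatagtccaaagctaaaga
The 3 stretches with H3K27ac had 58.5%, 60.5% and 50% GC and held 4, 12 and 1 CG dinucleotides. The 3 without had 29.5%, 37% and 33.5% GC and held 1, 2 and 0. The GC gap between these examples is larger than the gap between the medians over all distal H3K4me1 peaks, which is given at the end. Those medians are for the central 500 bp of the H3K4me1 peak in both groups, so windows and centres differ.

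Most H3K4me1 regions carried no H3K27ac. Of all assigned H3K4me1 peaks, 18599 (18.5%, interval 18.3 to 18.8) overlapped H3K27ac. The converse overlap was far commoner, since 70.6% of H3K27ac peaks (70.0 to 71.1) overlapped H3K4me1. H3K4me1 covered 320 Mb of the genome and H3K27ac 34.1 Mb. The share was highest at promoters. Of the 14878 H3K4me1 peaks that overlapped H3K4me3, the mark of promoters, 52.7% carried H3K27ac, against 14.6% of the 6112 peaks that lay within 1 kb of a TSS without H3K4me3. For the 79324 distal peaks, which overlapped neither H3K4me3 nor the 1 kb on each side of any annotated TSS, the share was 12.4% (12.2 to 12.7). Because promoter peaks raise a gene's share, each gene was also described by its distal peaks alone.

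The share varied with the distance from the TSS. Over all assigned peaks it was 34.0% within 1 kb, 37.4% from 1 to 5 kb and 14.7% from 5 to 20 kb. Distal peaks had 6.63% from 1 to 5 kb, 14.4% from 20 to 50 kb, 13.8% from 50 to 100 kb and 8.99% from 250 to 500 kb. The distal share was therefore highest at middle distances and low at both ends. Distal peaks from 1 to 5 kb were also narrower, with a median width of 2155 bp against 2959 bp over all distal peaks. The part of width in their low share was not tested. It differed little between exons (14.0%), introns (13.1%) and sequence outside coding genes (11.6%). It lay between 11.52% and 14.5% on every autosome and was 7.49% on the X chromosome (76 of 1015 peaks). Neighbouring regions were alike in part. A distal peak whose next distal peak within 25 kb carried H3K27ac had it in 20.04% of cases, and one whose next peak lacked H3K27ac in 12.3%.

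Within an activated distal region H3K27ac usually took up a minor part of the H3K4me1 peak. It covered a median of 31.1% of the H3K4me1 peak (quartiles 19.0 and 50.2). Of the 11423 distal H3K27ac peaks on H3K4me1, 73.6% lay wholly inside the H3K4me1 peak. Midpoints of these fell in the middle quintile of the H3K4me1 peak's length in 31.8% of cases, and in its outer quintiles in 8.81% and 8.12%. A peak wholly inside cannot have its midpoint near either end, so the low outer values follow in part from this selection. Whether H3K27ac was centred beyond that was not tested. Most activated distal regions (91.9%) held a single H3K27ac peak, and none held more than 5. Distal H3K27ac peaks on H3K4me1 were wider than those off it, with medians of 957 and 752 bp. In mouse the H3K27ac peaks covered a median of 83.9% of the activated distal H3K4me1 peak, and 29.1% of them lay wholly inside one. Mouse H3K27ac peaks were also wider, with a median of 2928 bp against 1164 bp in pig. All mouse libraries were sequenced at 100 bp before trimming, and the part of read length in this gap was not tested.

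**Figure D1:**
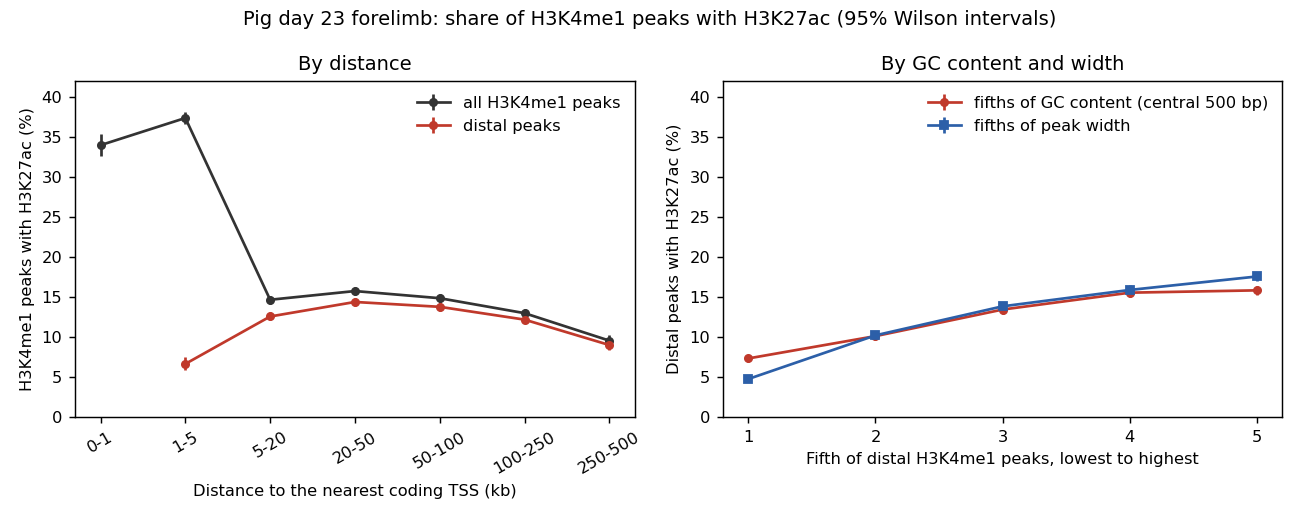
Share of pig H3K4me1 peaks with H3K27ac (%, 95% Wilson intervals) by distance to the nearest coding TSS (left, kb, all and distal peaks) and by quintiles of GC content and of peak width among distal peaks (right). All peaks reach 37.4% at 1 to 5 kb, where distal peaks stand at 6.63%, and the distal share runs between 7.31% and 15.8% from the lowest to the highest quintile of GC and between 4.74% and 17.6% from the narrowest to the widest quintile.

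Among the 5783 genes, the median share was 14.3% (quartiles 4.17 and 25). H3K27ac lay on none of the H3K4me1 peaks of 1371 genes (23.7%), and 244 genes had a share of 50% or more. A gene was called activated when the lower bound of its interval lay above the 18.5% of all assigned peaks, and primed when its upper bound lay below it. In these terms 398 genes (6.88%) had activated and 216 (3.74%) had primed surroundings. A primed call needs at least 17 peaks, and among the 1440 genes with that many, 15.0% were primed. On distal peaks, 411 of 4640 genes (8.86%) were activated against the distal share of 12.4%. Only 47 (1.01%) were primed on distal peaks, or 9.42% of the 499 genes with the 28 distal peaks that call needs. Of these genes, 234 were activated and 44 primed in both counts.

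The bounds fall within a near-continuous range of values. The last gene called activated, MSRB3, had 9 of 27 peaks and a lower bound of 18.6%, and the first one outside, CLASP1, had 6 of 16 and 18.5%. The last gene called primed, ABRA, had 0 of 17 peaks and an upper bound of 18.4%, and the first one outside, CSNK1G3, had 2 of 35 and 18.6%. The overlap rule behaved likewise: 575 H3K4me1 peaks overlapped H3K27ac by 1 to 100 bp, and 418 without overlap had H3K27ac within 100 bp. At the 500 kb limit, 8.18% of the 856 peaks just inside (450 to 500 kb) and 7.26% of the 647 just outside (500 to 550 kb) carried H3K27ac.

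**Figure D2:**
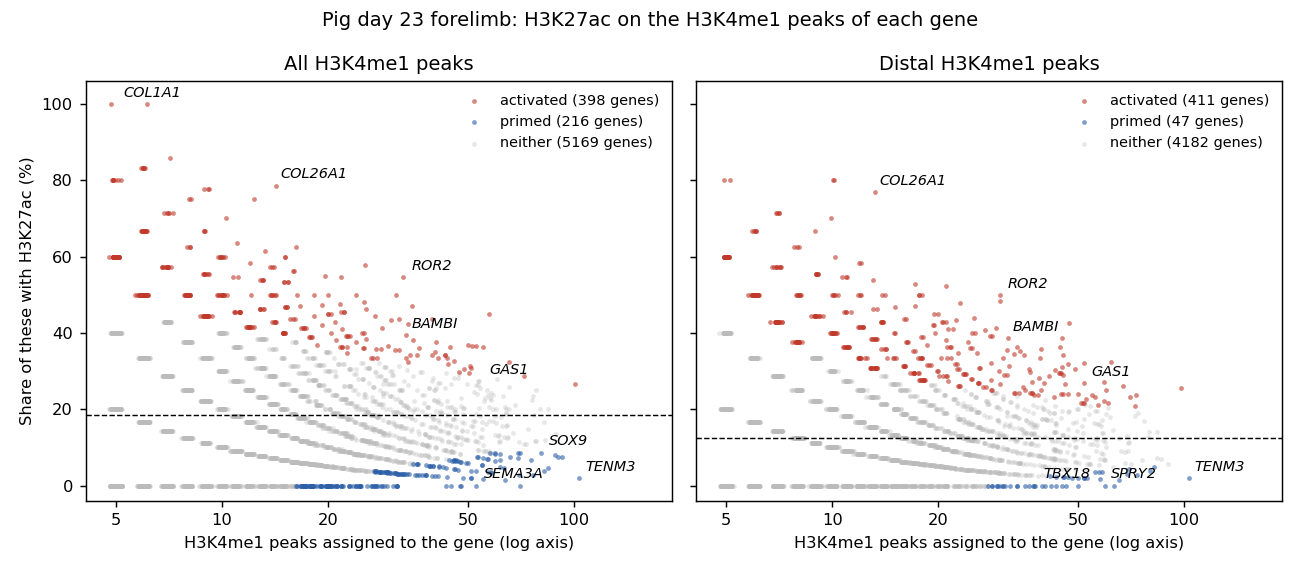
Each point is a pig gene, with the number of its H3K4me1 peaks (log axis, points shifted slightly sideways) against the share of them with H3K27ac (%), for all peaks (left) and distal peaks (right); red genes were called activated, blue primed, and the dashed line is the share over all peaks of that kind. Activated genes lie from 5 peaks upward, and primed genes begin at 17 peaks on the left and 28 on the right, so the primed call belongs to genes with many peaks.

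Activated and primed genes differed in the space around them. The territory of a gene, the span between the nearest other coding start sites on either side of it, had a median of 256 kb at activated genes and 1162 kb at primed genes. The 2 classes held medians of 9 and 29.5 H3K4me1 peaks, and a larger number of peaks is also what a primed call requires. On distal peaks the territories were 374 kb at activated and 1815 kb at primed genes, with 381 kb at the rest. Over all peaks, where promoter peaks count towards the share, territory and share were inversely ordered across the 3087 genes measured in both species. The Spearman rho was -0.22 as a description, and -0.18 on distal peaks across 2301 genes. In quintiles of distal peaks from the smallest to the largest territories, the share with H3K27ac was 12.5%, 14.6%, 14.6%, 11.8% and 8.68%. The distal share thus did not fall steadily and was lowest in the largest territories.

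The state of a gene's own promoter went with the distal regions around it, which were counted without it. A gene was counted with a mark at its TSS when any of its annotated coding TSSs had a peak of that mark within 1 kb. Genes with several such TSSs thus had more chances to be counted. The 2688 genes with H3K27ac at their TSS had a median distal share of 12.5%, and 11.2% of them were activated. Where the TSS carried H3K4me3 without H3K27ac (1060 genes), the median was 6.67% and 4.53% were activated. Where it carried neither (892 genes), they were 7.02% and 6.95%. The order was not one-to-one. Of the 411 genes activated on distal peaks, 301 (73.2%) had H3K27ac at the TSS, and of the 47 primed, 30 (63.8%) had it, against 57.9% of all 4640 genes. H3K4me3 was at the TSS of 95.7% of the 47, against 78.7%. Over all peaks, where promoter peaks count towards the share, H3K27ac was at the TSS of 85.9% of activated and 42.1% of primed genes, against 57.5% of all.

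The genes with the highest lower bounds included structural and membrane proteins. COL26A1, which encodes a collagen (chromosome 3, 9003126 to 9164074), had H3K27ac on 11 of 14 peaks (78.6%, 52.4 to 92.4) and on 10 of 13 distal ones. Of those 14 peaks, 12 lay within the gene. COL1A1, the main chain of type I collagen (chromosome 12, 26379087 to 26397180), had it on 5 of 5 (interval from 56.6%). SDC1, the heparan sulfate proteoglycan syndecan-1, had 7 of 9, and JAM3, an adhesion molecule of cell junctions, had 7 of 10. HEG1, a membrane protein of endothelial and heart development, had 7 of 10 distal peaks.

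The other genes had varied roles. CEBPD, a bZIP transcription factor with no H3K4me1 peak inside its own short body, had H3K27ac on 9 of 12 peaks (46.8 to 91.1), 8 of 10 of them distal and spread from 10.7 to 146 kb. MED26, a subunit of the Mediator complex, had 6 of 7, and ANAPC13, a subunit of the anaphase-promoting complex, had 5 of 6. FNBP1, which bends membranes in endocytosis, and NEPRO, a nucleolar protein, had 7 of 9 each. FMNL3, a formin that builds actin filaments, and FXYD6, a regulator of the sodium pump, had 5 of 6 each. SUSD6 had 8 of 10 distal peaks, GOLM1, a Golgi membrane protein, 5 of 7, the uncharacterised LOC100524613 6 of 6 peaks and C7H14orf1 5 of 6. The 12 highest of either count are 17 genes, and all 17 had H3K27ac at the TSS, against 57.5% of all genes, where promoter peaks also count towards the share that ranks them. Most rest on fewer than 15 peaks. The calls of COL1A1, MED26, FMNL3, FXYD6 and C7H14orf1 ended under 3 of 5 other settings, such as the wider 50% of peaks, and those of ANAPC13, JAM3 and LOC100524613 under 2, in part because fewer than 5 peaks were left.

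ROR2 was an activated gene with many peaks. It encodes the receptor tyrosine kinase through which WNT5A directs outgrowth of the limb, and lies on chromosome 14 at 2803840 to 3035384. H3K27ac lay on 18 of its 33 H3K4me1 peaks (54.5%, 38.0 to 70.2) and on 15 of 30 distal peaks. Of the 18, 15 lay within the gene body, and the distal ones ran from 20.4 to 204 kb from the TSS. All 18 distal H3K27ac peaks assigned to ROR2 overlapped H3K4me1. Its call held under all 5 other settings tried. In mouse, 5 of 18 peaks at Ror2 carried H3K27ac, which was called neither activated nor primed.

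At the other end stood genes with many H3K4me1 peaks of which almost none carried H3K27ac. ADGRL2, an adhesion receptor of the latrophilin family (chromosome 6, 131727082 to 132366106), had H3K27ac on 0 of 68 peaks, which allows a share of up to 5.35%. TENM3, a teneurin that guides synaptic wiring, had it on 2 of 103 (upper bound 6.81%), the most peaks of any gene. The synaptic proteins NRXN3 (0 of 45) and LRFN2 (0 of 43), the neural cell adhesion protein OPCML (1 of 55), R-cadherin CDH4 (2 of 71) and the neuron navigator NAV3 (1 of 64) followed. The others were TLE4, a Groucho-type co-repressor (0 of 47), the membrane protein MCTP2 (2 of 75) and C1H15orf41 (1 of 52). On distal peaks alone the scaffold protein MAGI1 (1 of 65), the orphan nuclear receptor ESRRG (0 of 42) and the co-repressor RUNX1T1 (0 of 40) joined them.

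At some of these genes H3K27ac was present, and its distal peaks lay mostly off H3K4me1. NAV3 and TENM3 held 9 H3K27ac peaks each and ADGRL2 held 5, against a median of 2 at genes with neither call. Of the distal ones, 7 of 8 at NAV3, 4 of 6 at TENM3 and 4 of 4 at ADGRL2 lay off H3K4me1. The territories of NAV3, TENM3 and ADGRL2 were also large, at 1733, 4778 and 4493 kb, against a median of 315 kb at genes with neither call. At the other genes named here the H3K27ac peaks ran from 0 at NRXN3 and LRFN2 to 6 at MAGI1 and RUNX1T1. The median over all primed genes was 2.

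The 12 lowest of either count are 16 genes, and all 16 had H3K4me3 at the TSS, against 79.2% of all genes with 5 or more peaks. H3K27ac was at the TSS of 10 (62.5%), against 57.5% of all genes. It was at the TSS of ADGRL2, TENM3, ROBO2, TLE4, NAV3, C1H15orf41, SPRY2, MAGI1, ESRRG and RUNX1T1, and not at that of SEMA3A, NRXN3, LRFN2, MCTP2, OPCML or CDH4. In mouse, 8 of the 14 of these genes with enough peaks were primed, against 16.0% of all mouse genes with enough. They were Adgrl2 (4 of 62 peaks), Tenm3 (4 of 67), Robo2 (3 of 45), Nav3 (0 of 17), Opcml (1 of 40), Cdh4 (0 of 26), Magi1 (6 of 60) and Esrrg (1 of 30). Not called in mouse were Tle4 (7 of 41), Mctp2 (4 of 38), Nrxn3 (3 of 26), Runx1t1 (5 of 41), Spry2 (4 of 22) and Sema3a (5 of 29), nor Lrfn2, with 0 of 10.

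**Figure D3:**
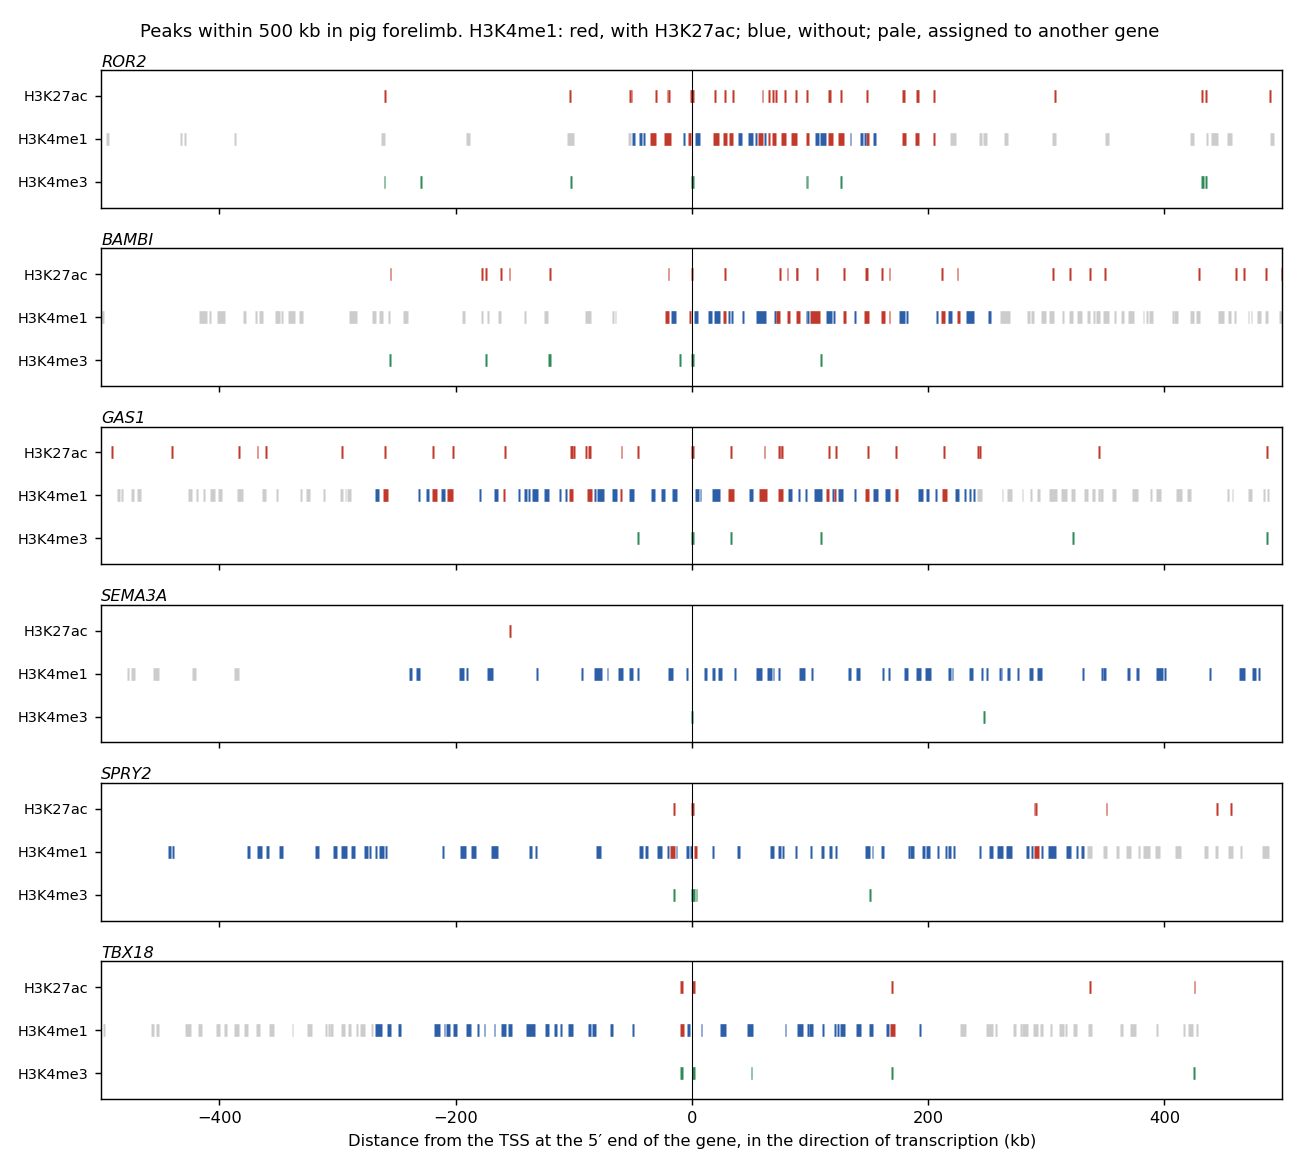
H3K27ac, H3K4me1 and H3K4me3 peaks within 500 kb of the TSS at the 5′ end of 6 pig genes, by distance from it in the direction of transcription (kb); H3K4me1 peaks of the gene are red where H3K27ac overlaps them and blue where it does not, and pale peaks belong to a neighbour. ROR2 shows 18 red peaks of 33, BAMBI 13 of 33 and GAS1 15 of 55, whereas SEMA3A shows none of 53, SPRY2 3 of 64 and TBX18 2 of 41. The few red ones at SPRY2 and TBX18 overlap H3K4me3, except 1 at SPRY2. It lies 290 to 294 kb from the SPRY2 TSS, without H3K4me3, and within 1 kb of an annotated TSS.

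Genes of limb development were read from 11 lists with 170 symbols, of which 167 were found in the pig annotation. Of these, 141 had 5 or more H3K4me1 peaks, 26 had fewer and 5 of those had none. Across the 141 the median share was 15.6%, against 14.3% over all genes, and 630 of 3882 peaks (16.2%) carried H3K27ac, against 18.5%. Among them 9 (6.38%) were activated, against 6.88% of all genes. Primed calls numbered 17, or 12.1% of the 141, against 3.74% of all genes. Limb genes have many peaks, and of the 89 with enough for a primed call 19.1% were primed, against 15.0%. On distal peaks 15 of 126 (11.9%) were activated, against 8.86%. Primed on distal peaks were 8 (6.35%), against 1.01%, or 16.3% of the 49 with enough peaks, against 9.42%. The pooled share and the activated calls of limb genes were thus close to those of all genes. Primed calls made up a larger share, but 7 of the 17 came from the list of axon guidance and ephrin genes. That list held 13 of the 89 genes with enough peaks. On distal peaks it gave 4 of the 8 primed calls and held 9 of the 49 genes. The lists differed among themselves, and the larger share was not read as a trait of limb genes.

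Hedgehog signalling, in which SHH from the posterior margin binds PTCH1 and releases SMO and the GLI factors, had the highest share of the signalling lists. H3K27ac lay on 71 of 270 peaks (26.3%, 21.4 to 31.9) and on 53 of 238 distal peaks (22.3%, 17.4 to 28.0), against 12.4% over all distal peaks. In the wider 50% of peaks it was 15.6%, below the 16.9% of the Notch list. Of the 11 genes with 5 or more peaks, 2 were activated, against 6.88% of all genes, and 1 of the 5 with enough peaks was primed, against 15.0%. On distal peaks 5 of 10 were activated, against 8.86%.

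Within the hedgehog list the ligand and its receptors stood at opposite ends. SHH (chromosome 18, 2546202 to 2555484) was primed, with H3K27ac on 1 of 28 peaks (0.633 to 17.7), 61.4 kb from its TSS. Its TSS carried H3K4me3 and no H3K27ac. The nearest-TSS rule gives an enhancer inside or beyond another gene to that gene, so such enhancers were not counted for SHH. The primed call of SHH, close to the bound, ended under all 5 other settings tried. The co-receptors that help cells bind SHH were high. BOC (chromosome 13, 146625218 to 146703165) had H3K27ac on 8 of 13 peaks (35.5 to 82.3) and CDON (chromosome 9, 53079543 to 53178881) on 7 of 14 (26.8 to 73.2), and both were activated in either count. In the wider 50% of peaks BOC lost its call, with 25% of 8 peaks.

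GAS1, the other co-receptor, has one of the larger territories of the list at 1041 kb. It lies on chromosome 10 at 28509168 to 28511554, and 15 of its 55 peaks (17.3 to 40.2) and 14 of 52 distal peaks carried H3K27ac, an activated call on distal peaks only. None of the 55 lay within the gene, and the activated distal ones stood 60.01 to 259 kb from the TSS. DISP1, which releases the ligand from the cells that make it, had 7 of 23 distal peaks, and PTCH1, the receptor and a target of the pathway, 4 of 13, both activated on distal peaks. The GLI factors were not called, with 14 of 53 peaks at GLI3, the main repressor in the limb, and 6 of 37 at GLI2. HHIP, an inhibitor that binds the ligand, had none of 11 although H3K27ac marked its TSS.

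FGF signals from the apical ridge keep the limb growing, and the list was near the background, with 65 of 409 peaks (15.9%, 12.7 to 19.8) and 44 of 366 distal peaks (12.02%). No ligand was called. FGF8, made by the ridge, had 0 of 5 peaks and FGF10, made by the mesenchyme, 1 of 17, and neither had H3K27ac at its TSS. FGF9, also a ridge ligand, had 4 of 45. The receptor FGFR2 was activated on distal peaks with 10 of 43, as was ETV5, a target transcription factor, with 4 of 10. The feedback inhibitors differed. SPRY2 (chromosome 11, 52153695 to 52158766) was primed with 3 of 64 peaks and 0 of 59 distal ones, which allows up to 6.11%, in a territory of 3462 kb and with H3K27ac at its TSS. Of the 3, 1 lay 290 to 294 kb from the SPRY2 TSS without H3K4me3. It was left out of the distal count because an annotated TSS lay within 1 kb of it. SPRY1 had 11 of 61 and SPRY4 5 of 27, both near the average, and the phosphatase DUSP6, which switches off the kinase downstream of FGF receptors, had 6 of 42.

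BMP signalling controls digit number, cell death and cartilage, and its list gave 86 of 496 peaks (17.3%) and 58 of 432 distal peaks (13.4%). Of the ligands, BMP4 and BMP7 were primed with 2 of 36 each, calls that ended under all 5 other settings, and BMP2 had 2 of 33. The intracellular mediator SMAD1 (5 of 12) and the target gene ID1 (3 of 6) were activated, calls that ended on distal peaks and under 4 and 3 of the 5 other settings in all. BAMBI, a decoy receptor that dampens BMP signals (chromosome 10, 40053368 to 40058590), was activated with 13 of 33 peaks (24.7 to 56.3) and 12 of 31 distal ones. The 12 lay 21.0 to 226 kb from its TSS, and none of the 13 was within the gene. The call ended under 3 of the 5 other settings, and it held on distal peaks. Among the homeobox targets MSX2 had 10 of 45 and MSX1 1 of 23, neither of them called.

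WNT signalling, which patterns the dorsal side and the growing tip, had 87 of 443 peaks (19.6%) and 73 of 405 distal peaks (18.0%, 14.6 to 22.1). Among its members ROR2 was activated in both counts, and SFRP1, a secreted WNT antagonist, on distal peaks with 7 of 25. WNT5A, the ligand of ROR2, had 14 of 66, AXIN2, a target of the pathway, 7 of 46, and the enhancer of WNT signals RSPO3 1 of 23. No member was primed. In the Notch list (37 of 172 peaks, 21.5%) the call fell on HES1, a target repressor that also takes part in limb growth, with 14 of 40 peaks (22.1 to 50.5) and 11 of 36 distal ones. The ligand JAG1 had 4 of 38.

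Retinoic acid and the MEIS factors mark the proximal limb, and this list had 52 of 267 peaks (19.5%) and 32 of 239 distal peaks (13.4%). The members lay on both sides on distal peaks. The retinoic acid receptor RARB was activated, with 12 of 57. MEIS1 was primed on distal peaks, with 3 of 71, while 6 of its 7 remaining peaks carried H3K27ac. Posterior Hox genes could hardly be read by this measure, since their clusters are dense and the 10 genes held 15 H3K4me1 peaks, 6 of them with H3K27ac, although 8 of the 10 had H3K27ac at the TSS.

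**Figure D4:**
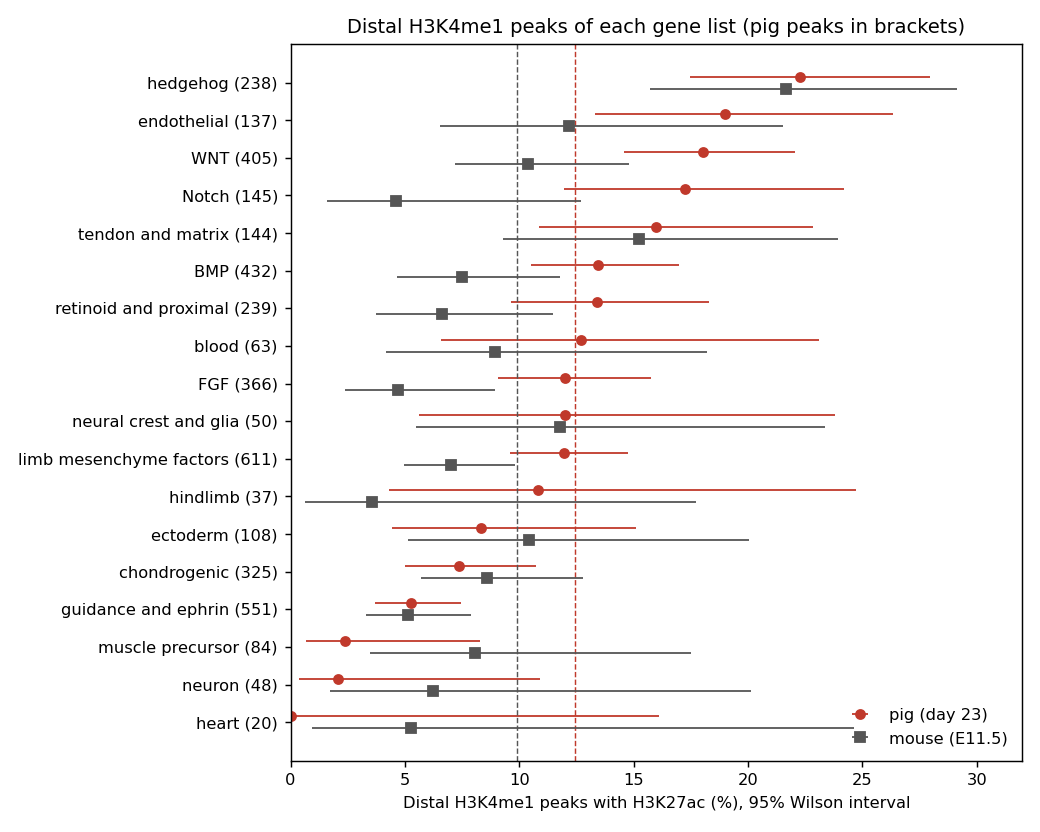
Share of distal H3K4me1 peaks with H3K27ac (%, 95% Wilson intervals) for each gene list with 20 or more distal peaks in pig, in pig (red) and for the same genes in mouse (grey), with the dashed lines at the share of all distal peaks of each species. Hedgehog stands at 22.3% in pig and 21.7% in mouse, and guidance and ephrin genes at 5.26% and 5.14%.

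Transcription factors of the limb mesenchyme ranged widely, with 119 of 713 peaks (16.7%) in all. Of the 26 with 5 or more peaks 1 was activated, against 6.88% of all genes, and 3 of the 18 with enough peaks were primed, against 15.0%. ALX4, a homeobox factor of the anterior margin (chromosome 2, 18070726 to 18085685), was the activated one, with 10 of 22 peaks (26.9 to 65.3) and 9 of 20 distal peaks. Those 9 lay 30.3 to 100.02 kb from the TSS and outside the gene, and the TSS itself carried neither H3K27ac nor H3K4me3. TBX18 (chromosome 1, 53836939 to 53867460), a T-box factor of the proximal mesenchyme, was primed with 2 of 41 peaks and 0 of 38 distal ones, a call that held on distal peaks and ended under the other 4 settings. SALL1, a zinc finger factor needed for digits, was primed with 3 of 62, and IRX5, which acts in the early limb bud, with 2 of 38, a call that ended under all 5 other settings. TBX5, which specifies the forelimb, had 4 of 21 peaks and H3K27ac at its TSS. TBX3, a factor of the limb margins (12 of 54), and OSR1, a zinc finger factor of connective tissue (16 of 80), were not called. HAND2, a posterior regulator of SHH, had 0 of 4 peaks, too few to be read.

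Genes of cartilage had a low share, with 37 of 355 peaks (10.4%, 7.66 to 14.0) and 24 of 325 distal peaks (7.38%, 5.01 to 10.8). Of the 7 members with enough peaks for a primed call 3 were primed, against 15.0% of all genes with enough. These 3 were factors with many H3K4me1 peaks. SOX9, the master factor of cartilage (chromosome 12, 8642154 to 8647315), had H3K27ac on 7 of 81 peaks, SOX5, its partner, on 5 of 61, and TRPS1, a GATA-type repressor in chondrocytes, on 4 of 56. All 3 had H3K27ac at the TSS. The calls of SOX9 and TRPS1 ended under all 5 other settings and that of SOX5 under 4, and on distal peaks they stood at 5 of 76, 2 of 52 and 3 of 57. COL2A1, the collagen of cartilage, had 3 of 7 peaks and ACAN, its proteoglycan, 2 of 8. In the list of tendon and matrix genes, at 29 of 157 peaks (18.5%), COL1A1 was activated and MKX, a tendon factor, was activated on distal peaks with 5 of 16. COL3A1 and POSTN, matrix genes of connective tissue, each had 0 of 7, and COL5A1 had 0 of 15.

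Axon guidance and ephrin genes, which steer nerves and vessels and set boundaries between cells, had the lowest share of the limb lists over all peaks, and kept it under 4 of the 5 other settings, the posterior Hox genes having 0 of 5 distal peaks. H3K27ac lay on 41 of 585 peaks (7.01%, 5.21 to 9.37) and on 29 of 551 distal peaks (5.26%, 3.69 to 7.46). None of the 16 genes was activated and 7 were primed, of the 13 with enough peaks, against 15.0% of all genes with enough. These were SEMA3A (0 of 53), SEMA3D (0 of 24), SLIT2 (0 of 30), NTN1 (1 of 28) and EPHA7 (0 of 20), with the Slit receptors ROBO1 (2 of 58) and ROBO2 (0 of 48). The calls of NTN1, SEMA3D and EPHA7 ended under all 5 other settings, and those of the other 4 held on distal peaks.

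Repulsive ligands and receptors were thus both among the primed genes. SEMA3A, a repellent of motor and sensory axons, lies on chromosome 9 at 95934937 to 96387950, and 36 of its 53 H3K4me1 peaks were within the gene. A single distal H3K27ac peak was assigned to it, and that peak lay off H3K4me1. All 48 peaks of ROBO2 lay within the gene. Other members of the same families were not called, with 7 of 55 at the semaphorin receptor NRP1, 7 of 49 at SLIT3, 6 of 50 at EPHA4 and 8 of 70 at EFNA5.

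The labelled tissue was read from the same peaks. H3K27ac was at the TSS of 0 of the 6 hindlimb genes, including PITX1 and TBX4, and at that of the forelimb gene TBX5. Of their peaks, PITX1 had H3K27ac on 0 of 19, a primed call, TBX4 on 3 of 14 and ISL1 on 1 of 9. On distal peaks the hindlimb list had 4 of 37 (10.8%), against 12.4% over all distal peaks. Housekeeping genes had H3K27ac at 13 of 14 TSSs and on 14 of 37 peaks (37.8%), but on 2 of 17 distal ones. Marker genes of liver had 0 of 16 peaks (up to 19.4%), of heart 2 of 27 and of neurons 1 of 63.

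Genes of other cell types that a dissected forelimb holds were read in the same way. The muscle precursor list had H3K27ac on 8 of 105 peaks (7.62%, 3.91 to 14.3) and 2 of 84 distal ones. Its primed members were PAX3 and PAX7, the paired factors of muscle progenitors, each with 0 of 18, and EYA1, a transcriptional co-activator, with 0 of 26. The endothelial list had 27 of 152 peaks (17.8%) and 26 of 137 distal peaks (19.0%, 13.3 to 26.4). It rested mainly on CDH5, the cadherin of vessels, which was activated with 16 of 52 peaks, none of them inside the gene, although its TSS carried neither H3K27ac nor H3K4me3. H3K27ac was at 1 of the 12 TSSs, that of ERG. FLT1, a VEGF receptor, was primed with 0 of 22, and EMCN, a sialoprotein of vessels, had 0 of 14. PTPRC, the CD45 antigen of white blood cells, was activated on distal peaks with 6 of 18 and 6 of 18 over all peaks, where it was not called. The ectoderm list had 15 of 128 peaks (11.7%), with 2 of 33 at TFAP2C and 3 of 32 at TFAP2A, factors of the surface ectoderm. Its activated member, the epithelial adhesion protein EPCAM, had 3 of 6 and was named after its values were seen. The list of neural crest and glia had 10 of 65 (15.4%). Blood genes had 9 of 74 peaks (12.2%) and H3K27ac at 0 of 10 TSSs. The part of cell type proportions in these shares was not tested.

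The same measure was taken in the mouse forelimb for 14946 genes with the same symbol, of which 3087 had 5 or more H3K4me1 peaks in both species. Their shares were ordered alike to a moderate degree, with a Spearman rho of 0.34 over all peaks and 0.20 over the distal peaks of 2301 genes. The numbers of peaks behind a share are small at most genes, and territories were shared between the species (rho 0.89). Genes activated in pig had a median mouse share of 25%, genes primed in pig 6.06% and the rest 14.3%. On distal peaks these medians were 12.5%, 3.85% and 6.25%.

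Calls were shared by a minority of genes. Of these orthologs 226 were activated in pig and 113 in mouse, against backgrounds of 6.88% of pig and 3.81% of mouse genes, and 28 were in both, which is 12.4% of the pig and 24.8% of the mouse genes. For primed genes, 45 were in both, which is 25.7% of 175 in pig and 34.4% of 131 in mouse, where 3.66% of all genes were primed, or 16.0% of the 943 with the 15 peaks that call needs. On distal peaks 41 genes were activated in both, or 16.7% of 246 in pig and 26.6% of 154 in mouse, where 6.74% of genes were activated. A single mouse gene was primed on distal peaks, 0.0324% of all or 1.69% of the 59 with enough peaks, so primed distal calls could not be compared. Opposite calls were rare, with 3 genes activated in pig and primed in mouse and 0 the other way round. Few genes could show one, since a primed call needs 17 peaks in pig or 15 in mouse. Genes activated over all peaks held medians of 9 peaks in pig and 7 in mouse. The scarcity of opposite calls therefore cannot be read as likeness between the species.

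**Figure D5:**
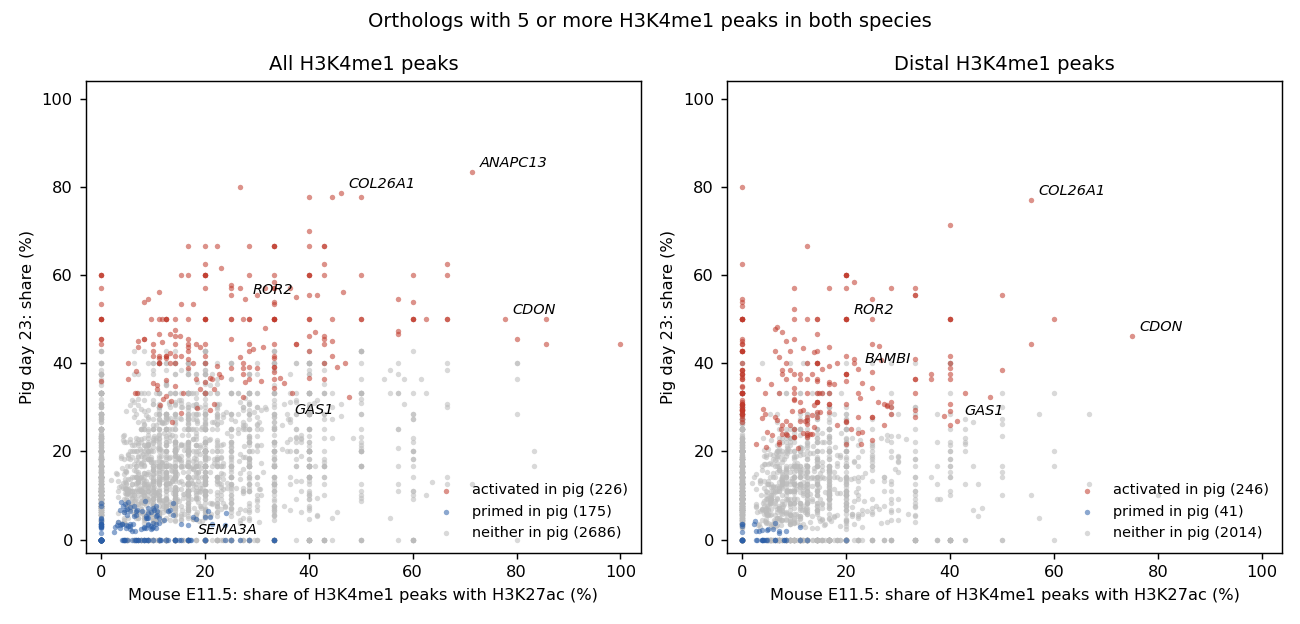
Share of H3K4me1 peaks with H3K27ac (%) in pig (vertical axis) against mouse (horizontal axis) for orthologs with 5 or more H3K4me1 peaks in both species, over all peaks (left, 3087 genes) and distal peaks (right, 2301 genes), coloured by the call in pig. The points scatter widely (Spearman rho 0.34 and 0.20), with CDON and COL26A1 high in both species and genes primed in pig near the bottom left.

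Hedgehog genes, pooled as a list, stood above the share of all peaks in both species. Their pooled share was 26.3% in pig and 26.7% in mouse, and on distal peaks 22.3% and 21.7%, against 12.4% and 9.88% over all distal peaks. Tendon and matrix genes had 15.97% and 15.2% of distal peaks. CDON had H3K27ac on 7 of 14 peaks in pig and 7 of 9 in mouse, GAS1 on 15 of 55 and 14 of 39, and DISP1 on 9 of 29 and 9 of 22, and all 3 were activated on distal peaks in both. In mouse these 3 genes gave most of the 31 distal hedgehog peaks with H3K27ac, of 143. They had 6 of 8 (CDON), 12 of 29 (GAS1) and 5 of 18 (DISP1), so the mouse value rests mainly on them. PTCH1 differed, with 5 of 14 in pig and 0 of 10 in mouse, as did BOC, with 8 of 13 and 3 of 13. Guidance genes stood low in both, at 7.01% and 8.62%, and on distal peaks at 5.26% and 5.14%.

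Other lists were farther apart between the species. Notch genes had 17.2% of distal peaks with H3K27ac in pig and 4.62% in mouse, FGF genes 12.02% and 4.68%, and BMP genes 13.4% and 7.48%. HES1 had 11 of 36 distal peaks in pig and 0 of 15 in mouse, and ALX4 had 9 of 20 in pig and 0 of 9 in mouse. SOX9 was primed in both, with 7 of 81 in pig and 5 of 59 in mouse, as were SALL1 (3 of 62 and 4 of 46), ROBO1 (2 of 58 and 2 of 50) and IRX5 (2 of 38 and 2 of 32). SEMA3A had 0 of 53 in pig and 5 of 29 in mouse, where it was not called.

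Activated distal regions differed from primed ones in width and base composition. Distal H3K4me1 peaks with H3K27ac had a median width of 3525 bp and those without 2859 bp, and under a 1 bp rule a wider peak has more room for an overlap. Their central 500 bp had a median GC content of 49.8% with H3K27ac and 47.2% without, with quartiles of 44.8 to 55% and 42 to 53.2%. The share with H3K27ac was 7.31% in the lowest quintile of GC and 15.8% in the highest, and 4.74% in the narrowest quintile and 17.6% in the widest. The GC order held within tertiles of width. In the narrowest tertile, 12.1% of the most GC-rich tertile of peaks carried H3K27ac and 2.42% of the most GC-poor, and in the widest tertile 17.5% and 13.5%. It also held in the tertile with the largest territories, at 16.4% and 5.76%. Soft-masked repeats took up 13.4% with H3K27ac and 13.6% without.

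Of 19 motifs searched on both strands of the central 500 bp, most were found in nearly the same share of regions with and without H3K27ac once the regions without were weighted to the same GC content. The E-box CAGCTG, a class of site bound by basic helix-loop-helix factors, was in 34.7% of regions with H3K27ac and 30.8% of those without (33.3% weighted), against 31.3% of all distal regions. The homeobox core TAATTA was in 10.5% with and 12.9% without (10.5% weighted), and 12.6% of all. The AP-1 site TGANTCA was in 14.5% with and 15.6% without (15.01% weighted), and 15.5% of all. The TEAD core GGAATG was in 25.7% and 25.8%, and 25.8% of all. The GLI site TGGGTGGTC was in 0.598% with and 0.546% without (0.606% weighted), and 0.552% of all. A palindrome bound by EBF factors was in 2.33% with and 1.78% without (2.06% weighted), and 1.85% of all. A match to these letters is not a measured binding site.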

How the data were processed

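ChIPmentation, in which a transposase adds adapters to antibody-bound chromatin, was run on 4 pig samples used here, 2 each for H3K27ac and H3K4me1. The authors deposited 1 list of peak positions per modification, with chromosome, start and end and no score. Per the series' design text, reads were aligned to Sscrofa11.1 (pig) or GRCm38 (mouse), and broad peaks had an irreproducible discovery rate below 0.01. The submitters' processing notes name Bowtie2 2.3.5, deepTools 3.5, SAMtools 1.9, Trimmomatic 0.39 and FastQC 0.11.9. Which program called the peaks is not stated in the notes, the depth per sample is unknown and a consensus has no replicate spread. Broad calling affects the overlap: H3K4me1 peaks are wide, so 1 bp of H3K27ac can activate several kb.

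Peaks and genes were handled in Python 3.11.15 with numpy 2.4.6, pandas 2.3.3 and scipy 1.17.1. The overlap, the assignment within 500 kb, the Wilson intervals and the 2 calls are defined with the results, and were tested on simulated data. The deposited H3K4me3 list was used to define distal peaks. Orthologs were genes with the same symbol and 1 record in each annotation. Named genes are the 12 with the highest lower bounds and the 12 with the lowest upper bounds, over all and over distal peaks, members of the limb lists, and up to 4 members with the most peaks from each other list. Members and the 21 gene lists were chosen with earlier results of these data known. Alternatives were a stricter overlap, distal peaks, 100 kb, the wider 50% of peaks, a minimum of 10 or 20 peaks and base pairs.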

Additional observations from a re-analysis of the deposited data

How the results depend on the processing

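No paired analysis was possible because each modification is 1 consensus list with no column per sample, and for the same reason no replicate could be left out. The share of H3K4me1 peaks with H3K27ac, 18.5%, was 13.5% when the overlap had to cover 50% of the narrower peak, 3.63% when 50% of the H3K4me1 peak had to be covered, 12.4% on distal peaks, 21.0% with assignment within 100 kb, 12.8% in the wider 50% of each list and 5.74% in base pairs. Under the same 6 settings the median gene share, 14.3%, was 11.11%, 0%, 10%, 16.7%, 7.69% and 3.95%, and it was 13.5% with a minimum of 10 peaks and 13.0% with 20. Activated genes, 398 at first, numbered 469, 298, 411, 270 and 125 under the first 5 settings, of which 298, 123, 234, 245 and 74 were the same genes, and 190 and 80 under the 2 higher minimums. Primed genes, 216 at first, numbered 68, 1, 47, 78 and 21, of which 63, 1, 44, 62 and 15 were the same genes, and 216 and 176 under the higher minimums. Fewer peaks per gene or a lower overall share leave less room for a primed call, by construction.

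Of the 24 named activated genes, 4 kept the call under all 5 settings (COL26A1, CEBPD, GOLM1 and ROR2), and of the 30 named primed genes 1 did (TENM3) and 9 kept it under none. With 50% of the H3K4me1 peak covered, MED26 and C7H14orf1 turned to 0% and SOX9 to 3.70%, above the overall share of 3.63%. In the wider 50%, ID1 and NEPRO turned to 0% of 2 peaks each. Of 105 comparisons of a list with the overall share, 81 stayed on the same side. The exceptions included BMP, limb mesenchyme, tendon, housekeeping and endothelial genes, and never hedgehog, chondrogenic or guidance genes.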
